A study of Mus musculus with 11 samples.

Results

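Interferon response genes are the transcripts that cells switch on when interferon reaches its receptors. A list of 39 such genes was followed here in sorted CD24-TCRb- thymocytes of mice, the thymus cells that lack CD24 and the T cell receptor beta chain on their surface. Members were chosen by name, from listed symbols found in the authors' normalised tables. Those tables held only the genes that passed a filter on low counts, so 6 members entered through the Tcf7 table alone. All 39 were in the Tcf7 table among 12366 genes, and 33 were in the Bcl11b table among 10910 genes. The 6 missing from the Bcl11b table were Ifit2, Ifit3, Oas1a, Oasl1, Rsad2 and Ifi44, which had between 0 and 12 counts per library there.

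The study measured RNA in 11 libraries of cells purified by flow cytometry. At postnatal day 0 there were 2 libraries of Bcl11b +/N440K, 2 of Bcl11b D/N440K and 2 of Bcl11b +/+ thymocytes. Bcl11b is a zinc finger factor of T cell development, N440K is a substitution in it, and the D allele is not described further in the sources used here. At postnatal day 7 there were 3 libraries under the label Tcf7 F/F:Vav1-Cre and 2 of Tcf7 +/+ thymocytes. Tcf7 encodes TCF1, a factor that starts the T cell programme, and Vav1-Cre acts throughout blood cells rather than in thymocytes alone. Strain background and the number of animals per library are not given in the sources used here, so p-values measure the spread between libraries, which may be technical.

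Type I interferons bind a receptor on most cells and activate a complex that holds STAT2 and IRF9 and binds a short DNA motif, the interferon-stimulated response element, near its target genes. The products include sensors of viral nucleic acid, enzymes that block viral RNA or protein, and regulators such as IRF7 and USP18 that raise or damp the response. In the thymus, interferon is made at low levels without infection, and several cell types there carry this programme.

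The motif itself was looked for in the promoters, because it is what the members are known to share and the members were not chosen by it. RefSeq promoter windows of GRCm38.p6, each 300 bases long with 250 before the transcription start and 50 after it, were matched for 29 of the 39 members. Those not matched were Mx1, Mx2, Oas2, Usp18, Zbp1, Rtp4, Parp9, Parp14, Dhx58 and Ifi27l2a. The response element was searched on both strands as TTTCNNTTTC, where N is any base, and read from the other strand it is GAAANNGAAA. It was found in 12 of 29 members, or 41.4%, against 3.99% of the 27025 genes in the table. A second motif, the gamma-activated site TTCNNNGAA, was found in 8 of 29 members, or 27.6%, against 9.55% of all genes. A match is a run of letters and not a measured binding site. The match nearest the start is shown for each of the 12 members, 5′ to 3′ on the gene's own strand, with the matched bases in capitals and up to 10 bases on each side.
Stat2: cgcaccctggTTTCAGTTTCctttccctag
Ifih1: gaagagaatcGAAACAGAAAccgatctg
Oas1a: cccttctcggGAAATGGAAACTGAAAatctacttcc
Rsad2: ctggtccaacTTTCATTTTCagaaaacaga
Ddx58: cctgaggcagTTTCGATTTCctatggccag
Eif2ak2: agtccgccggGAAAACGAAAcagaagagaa
Oas3: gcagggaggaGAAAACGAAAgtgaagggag
Ifit1: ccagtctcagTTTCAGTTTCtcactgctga
Ifit3: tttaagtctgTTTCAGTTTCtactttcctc
Isg15: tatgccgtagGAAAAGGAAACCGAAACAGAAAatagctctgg
Trim30a: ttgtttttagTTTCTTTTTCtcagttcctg
Bst2: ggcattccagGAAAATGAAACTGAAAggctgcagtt
In Isg15, Oas1a and Bst2 the matches overlap, so the capitals run for 22, 16 and 16 bases. The Stat2 window lies at chr10:128270266-128270295 on the plus strand. The Ifih1 window lies at chr2:62646206-62646233, the Oas1a window at chr5:120907520-120907555 and the Rsad2 window at chr12:26456553-26456582, each on the minus strand. These first 4 genes are the motif-bearing members that were higher in the F/F:Vav1-Cre-labelled libraries, as described further on.

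**Figure D1:**
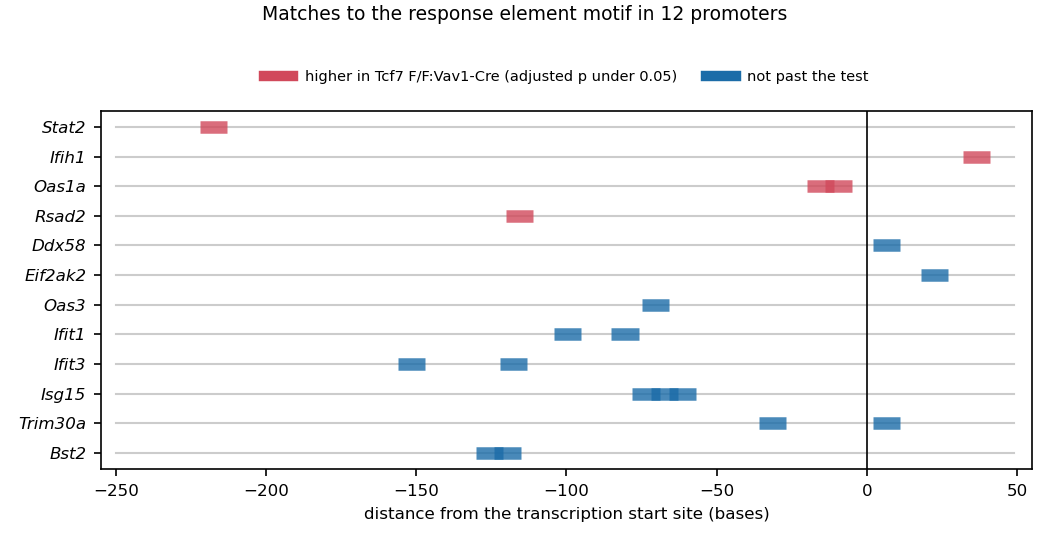
Distance in bases of each match to the response element from the transcription start site, on the gene's own strand, for the 12 members with a match; grey lines span the 300 bases searched, red bars mark members higher in the Tcf7 F/F:Vav1-Cre libraries and blue bars members not past the test. Matches lay on both sides of the start, from 222 bases before it in Stat2 to 32 bases after it in Ifih1.

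Library totals ran between 1273997 and 1842717 counts in the Tcf7 table and between 999381 and 1246272 counts in the Bcl11b table. The 2 Tcf7 +/+ libraries differed from each other more than other replicate pairs did, with a chi-square of 4.94 per degree of freedom against 1.14 to 2.16 elsewhere. Summed reads of 4 Y-linked genes were above 50 CPM in 1 of the 3 F/F:Vav1-Cre-labelled libraries, at 314 CPM against 0 and 1.11 CPM in the other two, and in both Tcf7 +/+ libraries, at 313 and 403 CPM, so sex was unevenly spread over these groups. Every Bcl11b library held both Y-linked reads, at 157 to 198 CPM, and reads of the female-specific RNA Xist, at 301 to 500 CPM. Each of these thus held RNA of both sexes, and so of more than 1 animal. Tcf7 itself had 847, 658 and 694 CPM in the F/F:Vav1-Cre-labelled libraries, against 552 and 594 CPM in Tcf7 +/+ libraries. Counts over the whole gene were thus higher, against the direction of the label (log2 fold change 0.35 ± 0.13 SE; edgeR adjusted p = 0.0497), and they do not check the deletion, whose position is not given in the sources used here. Bcl11b averaged 205 CPM in +/N440K, 178 CPM in D/N440K and 574 CPM in Bcl11b +/+ libraries. CD24, used for the sort, was low, with Cd24a at 2.12 CPM on average in the F/F:Vav1-Cre-labelled libraries and 10.1 CPM in Tcf7 +/+ libraries.

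The comparison at postnatal day 7 asked how thymocytes of mice carrying floxed Tcf7 and Vav1-Cre differ from Tcf7 +/+ thymocytes. Interferon response genes were higher in the F/F:Vav1-Cre-labelled libraries: 18 of 39 rose, none fell and 21 did not pass the test (edgeR quasi-likelihood test, adjusted p under 0.05 over all 12366 genes, two-sided). Among all genes 23.2% were called in either direction and 12.0% were called higher. The median log2 fold change of the members was 0.48, against -0.01 over all genes, and it was above 0 in 35 of 39. In 25 of 39 members every F/F:Vav1-Cre-labelled library lay above both Tcf7 +/+ libraries, which was so for 24.7% of all genes. The 33 members of both tables summed to 5086, 5141 and 5107 CPM in the F/F:Vav1-Cre-labelled libraries, against 3900 and 4014 CPM in Tcf7 +/+ libraries. In these bulk samples, more cells of a type and more RNA per cell cannot be told apart. The count of 18 was 10 without Tcf7 F/F:Vav1-Cre replicate 2 and 10 without replicate 3. With sex as a term, a fit added after seeing the data, the 18 log2 fold changes ran from 0.42 to 1.38. Y-linked reads were above 50 CPM in both Tcf7 +/+ libraries but only in F/F:Vav1-Cre replicate 2. The effect in that fit thus rests on 1 F/F:Vav1-Cre-labelled library, and its calls say nothing about stability. The share of all genes called was not set beside the counts without single libraries. Those counts therefore do not show whether members lost calls more than other genes did.

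**Figure D2:**
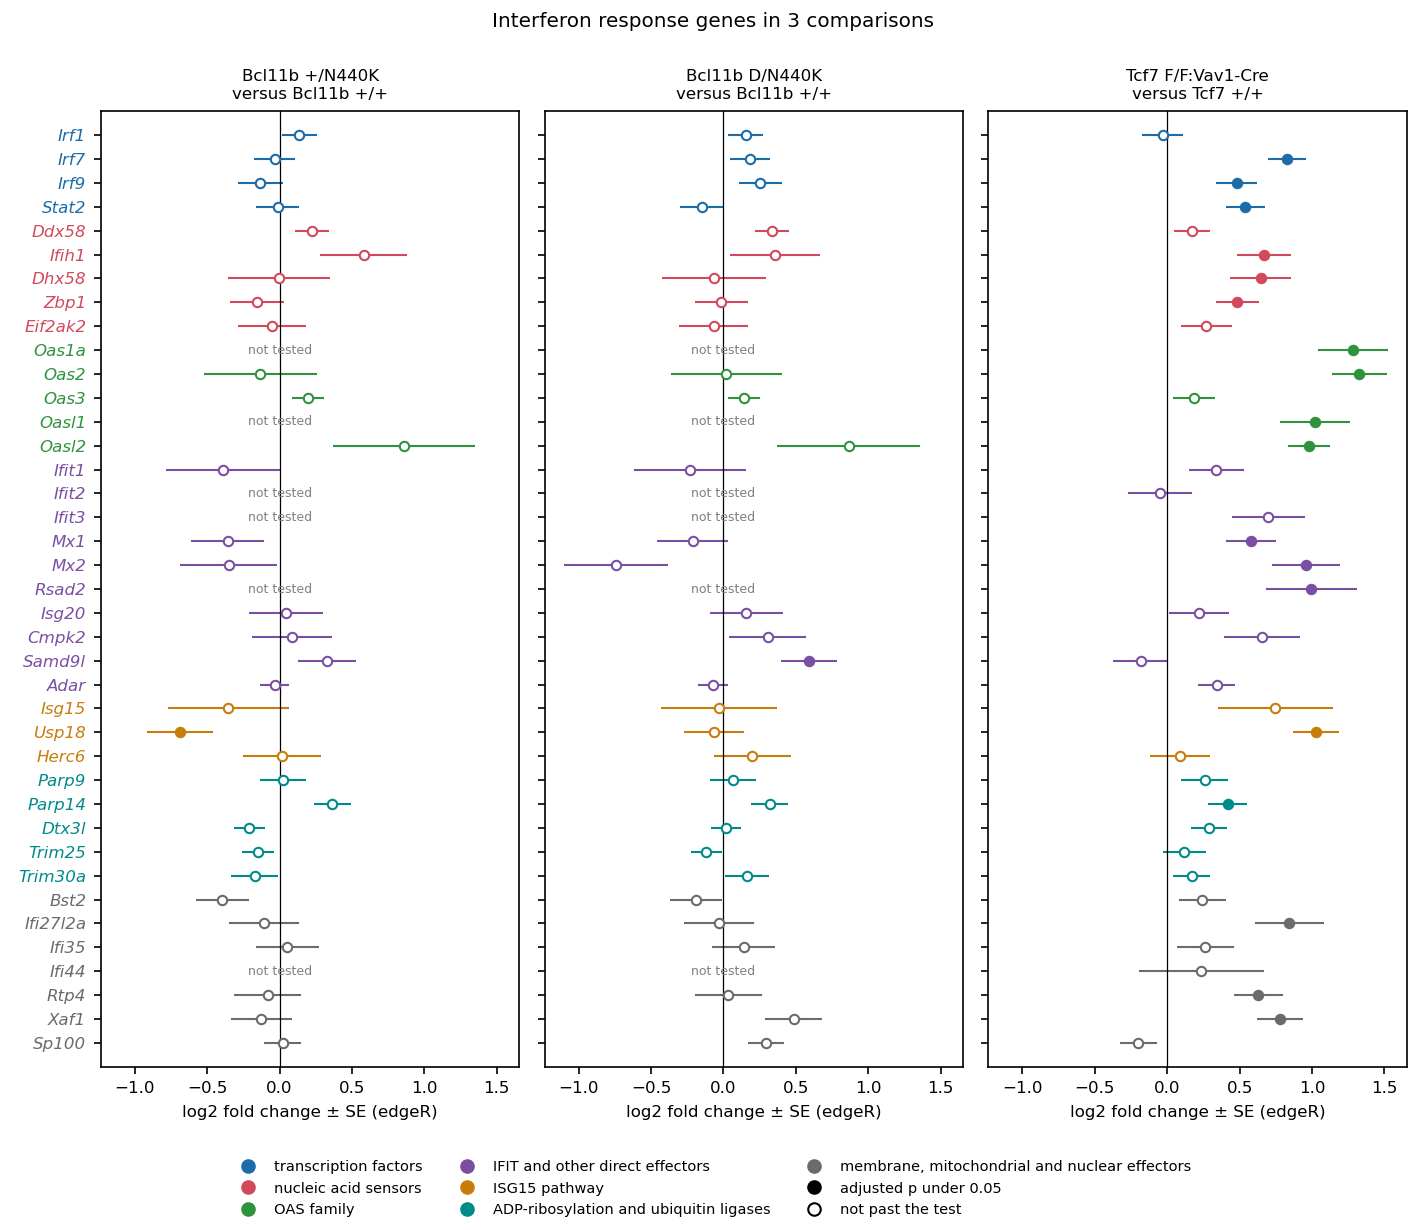
Log2 fold change with its standard error (edgeR) for each of the 39 members in the comparisons of Bcl11b +/N440K and Bcl11b D/N440K with Bcl11b +/+ and of Tcf7 F/F:Vav1-Cre with Tcf7 +/+; filled points passed an adjusted p under 0.05, colours give the role and members outside the Bcl11b table are marked as not tested. Filled points number 18 in the Tcf7 panel, all right of 0, and 1 in each Bcl11b panel.

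Of the 18 calls, 8 held with each of the 5 libraries left out in turn, those of Irf7, Oas1a, Oas2, Oasl1, Oasl2, Mx2, Usp18 and Xaf1. Calls of the other 10 were lost without at least 1 library. Irf9, Zbp1, Parp14 and Ifi27l2a lost theirs without any 1 of the F/F:Vav1-Cre-labelled libraries. Zbp1 and Ifi27l2a also lost it without Tcf7 +/+ replicate 2, and Parp14 without Tcf7 +/+ replicate 1. Dhx58 and Mx1 were lost without Tcf7 +/+ replicate 2 or F/F:Vav1-Cre replicate 2 or 3, and Rsad2 without Tcf7 +/+ replicate 1 or F/F:Vav1-Cre replicate 1 or 3. Ifih1 was lost without F/F:Vav1-Cre replicate 2 or 3, Rtp4 without replicate 1 or 2 and Stat2 without replicate 1. Every log2 fold change of the 18 stayed above 0 in all 16 alternatives run. For all 18, every F/F:Vav1-Cre-labelled library lay above both Tcf7 +/+ libraries, so the sign could hardly turn and does not measure stability.

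The counts by role that follow are to be read beside the 12.0% of all genes called higher and 23.2% called in either direction. Of the transcription factors, 3 of 4 rose. Irf7, which drives the second wave of type I interferon production, had 313, 320.4 and 333 CPM in the F/F:Vav1-Cre-labelled libraries, against 198 and 165 CPM in Tcf7 +/+ libraries. The groups did not overlap, and the log2 fold change was 0.83 ± 0.13 (SE; edgeR adjusted p = 1.92e-04). Stat2, which brings an activating domain to the interferon-activated complex, had 293, 263 and 274 CPM in the F/F:Vav1-Cre-labelled libraries, against 210 and 170 CPM in Tcf7 +/+ libraries. Its log2 fold change was 0.54 ± 0.14 (SE; edgeR adjusted p = 0.00776). Irf9, the DNA-binding part of that complex, had 155, 153 and 169 CPM in the F/F:Vav1-Cre-labelled libraries, against 118 and 110 CPM in Tcf7 +/+ libraries, a log2 fold change of 0.48 ± 0.14 (SE; edgeR adjusted p = 0.0222). Irf1, a factor induced above all by interferon gamma, averaged 158 CPM in the F/F:Vav1-Cre-labelled libraries and 161 CPM in Tcf7 +/+ libraries, a log2 fold change of -0.03 that did not pass the test.

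Of the 5 sensors of foreign or misplaced nucleic acid, 3 rose. Ifih1, which encodes the long double-stranded RNA sensor MDA5, had 91.4, 124 and 110 CPM in the F/F:Vav1-Cre-labelled libraries, against 57.5 and 80.04 CPM in Tcf7 +/+ libraries (log2 fold change 0.67 ± 0.19 SE; edgeR adjusted p = 0.0153). Dhx58, which encodes the regulator LGP2, had 46.9, 63.3 and 59.0 CPM in the F/F:Vav1-Cre-labelled libraries, against 38.9 and 33.8 CPM in Tcf7 +/+ libraries (log2 fold change 0.64 ± 0.21 SE; edgeR adjusted p = 0.0351). Zbp1, a sensor of left-handed nucleic acid that can trigger cell death, had 125, 131 and 127 CPM in the F/F:Vav1-Cre-labelled libraries, against 95.2 and 87.4 CPM in Tcf7 +/+ libraries (log2 fold change 0.49 ± 0.15 SE; edgeR adjusted p = 0.0252). The libraries of the 2 groups did not overlap for any of these 3 genes. Ddx58, the RIG-I gene and the sensor of highest mean level per kilobase over the 11 libraries, had 268, 284 and 258 CPM in the F/F:Vav1-Cre-labelled libraries, against 237 and 242 CPM in Tcf7 +/+ libraries, and its log2 fold change of 0.17 did not pass the test. Eif2ak2, which encodes the translation-blocking kinase PKR, had a log2 fold change of 0.27 that did not pass either.

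The OAS family, whose active members make the oligoadenylates that switch on RNase L, held the 2 largest log2 fold changes of the 39 genes, and 4 of its 5 members rose. Oas2 had 80.9, 97.8 and 102 CPM in the F/F:Vav1-Cre-labelled libraries, against 38.3 and 36.6 CPM in Tcf7 +/+ libraries (log2 fold change 1.33 ± 0.19 SE; edgeR adjusted p = 6.61e-05). Oas1a had 42.05, 37.3 and 48.4 CPM in the F/F:Vav1-Cre-labelled libraries, against 18.6 and 16.4 CPM in Tcf7 +/+ libraries (log2 fold change 1.28 ± 0.24 SE; edgeR adjusted p = 7.98e-04). In both genes the lowest F/F:Vav1-Cre-labelled library lay far above the higher Tcf7 +/+ library. Oasl1, which in mice limits translation of IRF7, had 48.5, 50.9 and 61.2 CPM in the F/F:Vav1-Cre-labelled libraries, against 33.3 and 19.7 CPM in Tcf7 +/+ libraries (log2 fold change 1.02 ± 0.24 SE; edgeR adjusted p = 0.00521). Oasl2 had 185, 198 and 199.7 CPM in the F/F:Vav1-Cre-labelled libraries, against 93.0 and 104 CPM in Tcf7 +/+ libraries (log2 fold change 0.98 ± 0.14 SE; edgeR adjusted p = 7.79e-05). Oas3 had the highest mean level per kilobase of the family over the 11 libraries, although in the F/F:Vav1-Cre-labelled libraries Oasl2 was higher, at 30.5 CPM per kilobase against 22.8 for Oas3. Oas3 did not pass the test. It had 161, 147 and 175 CPM in the F/F:Vav1-Cre-labelled libraries, against 148 and 135 CPM in Tcf7 +/+ libraries, and the groups overlapped (log2 fold change 0.19 ± 0.14 SE; edgeR adjusted p = 0.388). Oas1a, Oas2 and Oas3 lie within 177.2 kb of chromosome 5, so neighbouring genes differed in call. Oas1a has close copies such as Oas1g, between which short reads may be split, and its values are uncertain to that extent.

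Of the 10 direct effectors, 3 rose, or 30%, beside 12.0% of all genes called higher and 23.2% called in either direction. Mx2, an antiviral GTPase, had 37.2, 35.03 and 35.05 CPM in the F/F:Vav1-Cre-labelled libraries, against 18.6 and 18.04 CPM in Tcf7 +/+ libraries (log2 fold change 0.96 ± 0.24 SE; edgeR adjusted p = 0.00689). Mx1, its nuclear relative, had 116, 136 and 168 CPM in the F/F:Vav1-Cre-labelled libraries, against 104 and 84.0 CPM in Tcf7 +/+ libraries (log2 fold change 0.58 ± 0.18 SE; edgeR adjusted p = 0.0240). Rsad2, which encodes viperin, had 36.4, 32.8 and 48.4 CPM in the F/F:Vav1-Cre-labelled libraries, against 11.3 and 28.2 CPM in Tcf7 +/+ libraries (log2 fold change 0.99 ± 0.31 SE; edgeR adjusted p = 0.0289). The Rsad2 value rests on a wide Tcf7 +/+ pair. Its log2 fold change was as low as 0.49 and as high as 1.80 over the alternatives. The IFIT genes did not pass. Their log2 fold changes were 0.34 for Ifit1, -0.05 for Ifit2 and 0.70 for Ifit3, the last just outside with an edgeR adjusted p of 0.0524. Ifit3 also has a near-identical copy, Ifit3b. Adar, which edits double-stranded RNA and had the highest mean level per kilobase of this group over the 11 libraries, had 335, 286 and 333 CPM in the F/F:Vav1-Cre-labelled libraries, against 249 and 253 CPM in Tcf7 +/+ libraries (log2 fold change 0.34 ± 0.13 SE; edgeR adjusted p = 0.0629). Its exons share 1365 bases with Chrnb2. Cmpk2, a mitochondrial nucleotide kinase beside Rsad2, the exonuclease gene Isg20 and the translation regulator Samd9l had log2 fold changes of 0.66, 0.22 and -0.18, none past the test.

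In the ISG15 pathway, 1 of 3 genes rose, beside 12.0% of all genes called higher and 23.2% called in either direction. Usp18, which removes ISG15 from proteins and damps signalling at the type I receptor, had 128, 129 and 129 CPM in the F/F:Vav1-Cre-labelled libraries, against 68.7 and 57.5 CPM in Tcf7 +/+ libraries (log2 fold change 1.03 ± 0.16 SE; edgeR adjusted p = 1.43e-04). Its 3 libraries lay close together and well above the others. Isg15, the ubiquitin-like modifier itself, was low, with an average of 12.0 CPM in the F/F:Vav1-Cre-labelled libraries and 7.33 CPM in Tcf7 +/+ libraries, and did not pass the test (log2 fold change 0.75 ± 0.39 SE). Herc6, the ISG15 ligase of mice, had a log2 fold change of 0.09.

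Among the ADP-ribosylation and ubiquitin ligase genes, 1 of 5 rose, or 20%. Of all genes, 12.0% were called higher and 23.2% in either direction. Parp14, a mono-ADP-ribosyltransferase, had 363, 374 and 333 CPM in the F/F:Vav1-Cre-labelled libraries, against 235 and 299 CPM in Tcf7 +/+ libraries (log2 fold change 0.42 ± 0.13 SE; edgeR adjusted p = 0.0332). Trim30a, the member of highest mean level per kilobase over the 11 libraries, had 357, 323 and 302 CPM in the F/F:Vav1-Cre-labelled libraries, against 283 and 299 CPM in Tcf7 +/+ libraries, without passing the test (log2 fold change 0.17). Parp9 and Dtx3l, whose products form a complex and whose exons share 458 bases, had log2 fold changes of 0.26 and 0.29, and Trim25, a ligase that acts on RIG-I, had 0.12. None of these 3 passed.

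Of the 7 membrane, mitochondrial and nuclear effectors, 3 rose. Xaf1, a promoter of cell death, had 117, 117 and 109.6 CPM in the F/F:Vav1-Cre-labelled libraries, against 68.2 and 65.4 CPM in Tcf7 +/+ libraries (log2 fold change 0.78 ± 0.16 SE; edgeR adjusted p = 0.00154). Ifi27l2a, a small mitochondrial protein gene with a close copy beside it, had 78.4, 80.8 and 74.6 CPM in the F/F:Vav1-Cre-labelled libraries, against 58.04 and 28.8 CPM in Tcf7 +/+ libraries (log2 fold change 0.84 ± 0.24 SE; edgeR adjusted p = 0.0162). Rtp4, a receptor chaperone, had 160.1, 145 and 111 CPM in the F/F:Vav1-Cre-labelled libraries, against 89.03 and 89.6 CPM in Tcf7 +/+ libraries (log2 fold change 0.63 ± 0.17 SE; edgeR adjusted p = 0.0125). The Tcf7 +/+ pair was close for Xaf1 and Rtp4 and wide for Ifi27l2a, whose log2 fold change ran from 0.43 to 1.44 over the alternatives. Bst2, or tetherin, also a plasmacytoid dendritic cell marker, had the highest mean level per kilobase of these 7 over the 11 libraries, although in the F/F:Vav1-Cre-labelled libraries Ifi27l2a was higher, at 168 CPM per kilobase against 156 for Bst2. Bst2 had 135, 138 and 149.7 CPM in the F/F:Vav1-Cre-labelled libraries, against 139.7 and 98.6 CPM in Tcf7 +/+ libraries, and the groups overlapped. The log2 fold changes of Bst2, Ifi35, Ifi44 and the nuclear body gene Sp100 were 0.24, 0.26, 0.24 and -0.20, and none passed the test.

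**Figure D3:**
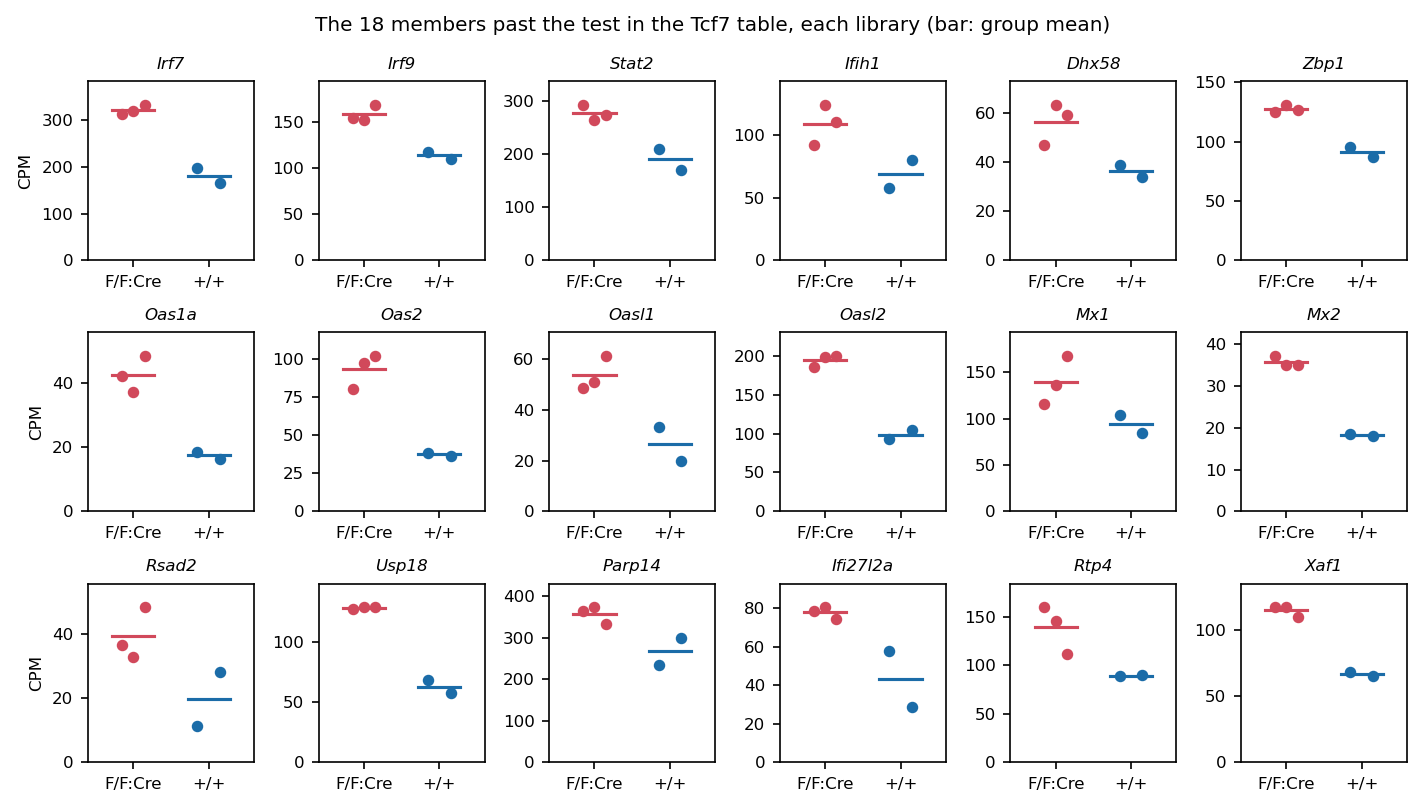
CPM of the 18 members that passed the test in the Tcf7 table, 1 point per library with the group mean as a bar, for Tcf7 F/F:Vav1-Cre (red, left) and Tcf7 +/+ (blue, right); each axis starts at 0. The red points lie above the blue points in all 18 panels, closest to them, relative to the level, in Mx1 and Parp14.

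Presence of the response element and the call can be set side by side for the 29 members with a promoter window. With the motif, 4 of 12 rose (Ifih1, Oas1a, Rsad2 and Stat2) and the median log2 fold change was 0.44. Without it, 5 of 17 rose (Irf7, Irf9, Oasl1, Oasl2 and Xaf1) and the median was 0.26. These counts leave out the 10 members without a promoter window, of which all but Parp9 rose. Whether the motif goes with the call can thus not be told from them. Members of the same gene cluster were called in part: both of Oasl1 and Oasl2 on chromosome 5, both of Mx1 and Mx2 on chromosome 16, and none of Ifit1, Ifit2 and Ifit3 within 99.3 kb of chromosome 19.

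The rest of the pathway moved unevenly in the Tcf7 comparison. Of 19 receptor and signalling genes, 4 rose and 4 fell, against the 23.2% of all genes called. Those that rose were Ifngr2, a chain of the interferon gamma receptor (log2 fold change 1.07), the kinase gene Tyk2 (0.67), the feedback inhibitor Socs1 (1.37) and Irf5 (1.29). Those that fell were Ifngr1 (-0.40), the lambda receptor gene Ifnlr1 (-2.18), Jak1 (-0.44) and Socs3 (-0.75). The type I receptor genes Ifnar1 and Ifnar2 (-0.14 and 0.13) did not pass. Of 11 ligand genes, 9 had 0 counts in every Tcf7 library, where 3 counts amount to 1.67 to 2.43 CPM. Ifng, the only ligand tested, fell to 7.28, 7.91 and 5.01 CPM in the F/F:Vav1-Cre-labelled libraries, against 29.3 and 28.8 CPM in Tcf7 +/+ libraries (log2 fold change -2.11 ± 0.30 SE; edgeR adjusted p = 6.16e-05). The sensing adaptors Myd88 (0.94) and Ticam1 (1.14) rose, out of 11 tested, or 18.2%, beside the 23.2% of all genes called. Of 64 other interferon-induced genes tested, 18 rose and 1, Ifi208 (-2.02), fell, with a median of 0.23. These calls came to 29.7% of the 64. Among them Ube2l6 (1.64) and Uba7 (0.76), the carrier and activating enzymes of ISG15, rose, as did the GTPase genes Igtp (1.08), Irgm2 (1.08) and Gbp5 (0.95) and Nlrc5 (0.75), a regulator of MHC class I.

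Markers of other cell types moved alongside, to be read against the 23.2% of all genes called. Of 8 myeloid markers 7 were tested and 4 were higher, among them Lyz2 at 448 and Csf1r at 507 CPM on average in the F/F:Vav1-Cre-labelled libraries, against 213 and 210 CPM in Tcf7 +/+ libraries, while the neutrophil marker S100a9 had 0 counts in 2 of the F/F:Vav1-Cre-labelled libraries. The myeloid list summed to 1606, 1449 and 1587 CPM in the F/F:Vav1-Cre-labelled libraries, against 1100 and 809 CPM in Tcf7 +/+ libraries. The dendritic and MHC II list, with 4 of 7 tested markers higher, summed to between 1866 and 2045 CPM in the F/F:Vav1-Cre-labelled libraries and to 1676 and 1209 CPM in Tcf7 +/+ libraries. Markers of plasmacytoid dendritic cells, known as strong interferon producers, had 2 of 7 called, both lower (Ccr9 and Klk1), and sums of 999.5, 1159 and 1186 CPM in the F/F:Vav1-Cre-labelled libraries, against 1768 and 1329 CPM in Tcf7 +/+ libraries. The B lineage list summed to between 43.5 and 56.6 CPM in the F/F:Vav1-Cre-labelled libraries and to 158 and 151 CPM in Tcf7 +/+ libraries, and the sort and T lineage list to between 1352 and 1597 CPM in the F/F:Vav1-Cre-labelled libraries and to 2125 and 2136 CPM in Tcf7 +/+ libraries. Of the double-positive thymocyte markers, 6 of 6 tested were called, 5 lower and 1 higher. Their log2 fold changes ran from -8.92 to 0.80, with a median of -4.75. The list's sums, which include the 1 higher marker, were 448, 444 and 446 CPM in the F/F:Vav1-Cre-labelled libraries, against 840.1 and 821 CPM in Tcf7 +/+ libraries. Of 7 natural killer and ILC1 markers, 4 were lower and 1 higher, with sums of 718, 640.2 and 605 CPM in the F/F:Vav1-Cre-labelled libraries, against 824 and 629 CPM in Tcf7 +/+ libraries. The part of these cells in the interferon result was not tested.

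**Figure D4:**
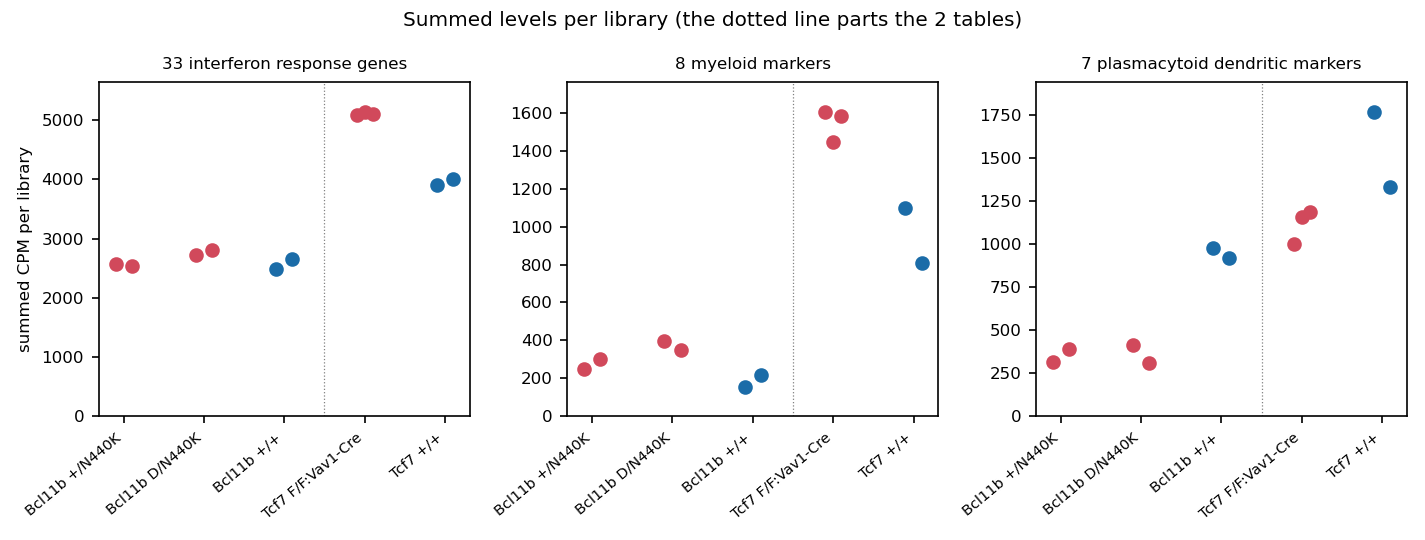
Summed CPM per library of the 33 interferon response genes found in both tables, of 8 myeloid markers and of 7 plasmacytoid dendritic markers, with 1 point per library; red marks the mutant groups and blue the +/+ groups, and the dotted line parts the tables, which were normalised separately. In the Tcf7 table the interferon and myeloid sums lie above both Tcf7 +/+ libraries in all 3 F/F:Vav1-Cre-labelled libraries, and the plasmacytoid sums lie below.

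The comparisons at postnatal day 0 asked what the N440K allele changes beside a + or a D allele. In Bcl11b +/N440K against Bcl11b +/+ libraries, 1 of 33 interferon response genes was called, against 10.1% of all genes, and the members' median log2 fold change was -0.04. The gene was Usp18, which had 27.8 and 31.6 CPM in +/N440K libraries, against 50.1 and 45.7 CPM in Bcl11b +/+ libraries (log2 fold change -0.69 ± 0.23 SE; edgeR adjusted p = 0.0439). The pairs did not overlap, but the call was lost with DESeq2 and on leaving out any 1 of these 4 libraries, and its adjusted p reached 0.549 over the alternatives. Of the others, Oasl2 had the largest log2 fold change, 0.86 ± 0.49 (SE), at 12.2 and 12.8 CPM in +/N440K libraries and 3.07 and 9.96 CPM in Bcl11b +/+ libraries, without passing the test. Ifi44, outside the tested genes, had 0 counts in both +/N440K libraries, which allows up to 1.34 CPM over the group, and 5.12 and 2.49 CPM in Bcl11b +/+ libraries.

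In Bcl11b D/N440K against Bcl11b +/+ libraries, 1 of 33 was called, against 12.4% of all genes, with a median log2 fold change of 0.07. Samd9l rose, with 62.5 and 91.6 CPM in D/N440K libraries, against 48.1 and 52.3 CPM in Bcl11b +/+ libraries (log2 fold change 0.59 ± 0.19 SE; edgeR adjusted p = 0.0352). The D/N440K pair was wide, and the call was lost with DESeq2, with limma-voom, without D/N440K replicate 2 and without either Bcl11b +/+ library. Ddx58 was just outside, with 218 and 194 CPM in D/N440K libraries, against 145 and 179 CPM in Bcl11b +/+ libraries (log2 fold change 0.34 ± 0.12 SE; edgeR adjusted p = 0.0520). Mx2, higher in the Tcf7 comparison, had 9.42 and 16.3 CPM in D/N440K libraries, against 24.6 and 18.3 CPM in Bcl11b +/+ libraries, and did not pass (log2 fold change -0.74 ± 0.36 SE). These 2 comparisons share the Bcl11b +/+ libraries.

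Between Bcl11b D/N440K and Bcl11b +/N440K libraries, 0 of 33 members passed the edgeR test, against 0.532% of all genes. At an unadjusted edgeR p under 0.05 there were 6, or 18.2%, against 851 of 10910 genes, or 7.80%. At that cut-off the members lay below all genes in both comparisons with Bcl11b +/+. The shares were 9.09% against 20.5% in +/N440K and 18.2% against 22.6% in D/N440K libraries. DESeq2 and limma-voom called 0 members between D/N440K and +/N440K libraries. The median log2 fold change was 0.12. The smallest p belonged to Xaf1, with 73.7 and 56.0 CPM in D/N440K libraries, against 45.7 and 39.5 CPM in +/N440K libraries (log2 fold change 0.61 ± 0.20 SE; edgeR adjusted p = 0.202).

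Related genes outside the list were also followed at postnatal day 0. Of 57 other interferon-induced genes tested, 6 rose and 1 fell in +/N440K libraries, and 15 rose and 1 fell in D/N440K libraries, each against Bcl11b +/+, where 10.1% and 12.4% of all genes were called in the +/N440K and D/N440K comparisons. The calls came to 12.3% of the 57 genes in +/N440K and 28.1% in D/N440K libraries, the first near the share of all genes. Ifitm3, which blocks virus entry, had log2 fold changes of 0.89 in +/N440K and 1.32 in D/N440K libraries, and Apobec3, a cytidine deaminase, 0.57 in +/N440K and 0.89 in D/N440K libraries, while Pml fell by 0.46 in +/N440K and 0.32 in D/N440K libraries. Of 18 receptor and signalling genes tested, 2 were called in each comparison, or 11.1%, near the share of all genes. Of 9 sensing adaptors 0 were called. At an unadjusted edgeR p under 0.05 there were 3 adaptors in +/N440K and 1 in D/N440K libraries. The share of all genes at that cut-off was 20.5% in +/N440K and 22.6% in D/N440K libraries. The 2 receptor genes, Ifngr1 and Ifngr2, fell in both, by 0.58 and 0.83 in +/N440K and by 0.57 and 0.94 in D/N440K libraries. Between D/N440K and +/N440K libraries, Ube2l6 was higher (1.72) and Nlrc5 lower (-0.40). Natural killer markers moved alongside, summing to 1130 and 1212 CPM in +/N440K, 1435 and 1383 CPM in D/N440K and 484 and 571 CPM in Bcl11b +/+ libraries. Myeloid markers summed to 248 and 303 CPM in +/N440K, 397 and 351 CPM in D/N440K and 155 and 215 CPM in Bcl11b +/+ libraries. Erythroid markers summed to 26.9 and 11.8 CPM in +/N440K, 92.5 and 123 CPM in D/N440K and 62.4 and 28.2 CPM in Bcl11b +/+ libraries. Plasmacytoid dendritic markers, 4 of 6 lower in each comparison, summed to 316 and 389.9 CPM in +/N440K, 410.2 and 309 CPM in D/N440K and 976 and 917 CPM in Bcl11b +/+ libraries. Double-positive thymocyte markers, 5 of 5 lower in each, summed to 52.2 and 58.2 CPM in +/N440K, 43.7 and 56.0 CPM in D/N440K and 508 and 514 CPM in Bcl11b +/+ libraries. Their part in these results was not tested.

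The difference between the D/N440K and the Tcf7 effects was tested in a joint fit of both tables, in which age and table cannot be told apart from genotype. It passed for 5 of 39 members, against 11.5% of all genes, and in each the D/N440K effect was the lower. These were Mx2 (difference -1.70 ± 0.42 SE on the log2 scale; edgeR adjusted p = 0.00646), Oas2 (-1.31 ± 0.40 SE; edgeR adjusted p = 0.0307), Usp18 (-1.09 ± 0.26 SE; edgeR adjusted p = 0.00482), Stat2 (-0.69 ± 0.21 SE; edgeR adjusted p = 0.0307) and Irf7 (-0.64 ± 0.19 SE; edgeR adjusted p = 0.0264). The count was between 1 and 10 when single libraries were left out: it was 1 without Bcl11b +/+ replicate 1, 2 without Bcl11b +/+ replicate 2 or either D/N440K library, 3 without Tcf7 F/F:Vav1-Cre replicate 3 and 10 without Tcf7 +/+ replicate 1.

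The +/+ libraries of the 2 tables give the members' levels at both ages, as a description with no test because the tables were normalised separately. Age cannot be told apart from table here. Cell type markers differed too: the myeloid list summed to 1100 and 809 CPM at day 7 and to 155 and 215 CPM at day 0. The sort and T lineage list went the other way, with 2125 and 2136 CPM at day 7 and 3126 and 3041 CPM at day 0. Their part was not tested. Mean CPM was higher at postnatal day 7 than at day 0 for 35 of 39 members, and the median ratio of day 7 over day 0 was 1.78. Those 35 include the 6 members that entered through the Tcf7 table alone, which favours a higher level at day 7. Of the 33 members in both normalised tables, mean CPM was higher for 29, or 87.9%, with a median ratio of 1.48. Over the 10531 genes in both tables the share was 49.2% and the median ratio 0.99. The widest gap was in Oasl2, with 98.6 CPM at day 7 and 6.52 CPM at day 0, a ratio of 15.1. The day 0 libraries held only 3 and 12 counts of Oasl2, and the ratio lay between 9.90 and 32.1 without single libraries. Those of Rsad2 (2.19 to 5.48), Ifi44 (1.32 to 2.71) and Ifi27l2a (0.799 to 1.61) also moved widely, the last across 1. Ifit2 and Oasl1, which entered through the Tcf7 table alone, followed with ratios of 5.78 and 5.72. The 4 members lower at day 7 were Isg15 (ratio 0.523), Oas3 (0.775), Mx2 (0.856) and Trim25 (0.920). Adar was nearly level, at 251 CPM at day 7 and 248 CPM at day 0.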

How the data were processed

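Per the labels' protocols, libraries of the sorted cells followed RamDA-seq with changes: reverse transcription from oligo(dT) and random-type primers, tagmentation by Tn5 and PCR. Deposited counts are whole reads per Ensembl gene, not normalised by the authors. The deposited CPM tables hold those counts scaled by the authors to library totals and TMM factors. All values (100%, tolerance 0.01) gave back whole reads. The submitters' processing notes name HTSeq 0.11.2, STAR 2.7.3a, fastp 0.20.0, Picard 2.21.1, SAMtools 1.9 and edgeR, with mm10 (GRCm38); strand and annotation release are not given in the sources used here. Exons of 15 of 39 members overlap another gene.

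Counts were filtered with filterByExpr (minimum count 10), normalised by TMM and tested per table with edgeR 4.0.16 (R 4.3.3; 1 coefficient per group, 3 residual degrees of freedom, Benjamini-Hochberg over all genes), after tests on simulated data. Alternatives used DESeq2 1.42.0 and limma 3.58.1, and figures matplotlib 3.10.9. Levels per kilobase use exon lengths of GENCODE M21. Floors are 3 counts and cover counting error only. Values in every library are given for called members and for the highest per kilobase in each of 7 roles. The members, lists and tests were chosen with earlier results of these data known.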

Additional observations from a re-analysis of the deposited data

Results flagged for a closer look

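For 5 members the effect of D/N440K against Bcl11b +/+ differed from the effect of Tcf7 F/F:Vav1-Cre against Tcf7 +/+ by a test of the difference itself (edgeR, adjusted over all genes). The 5 of 39 make 12.8%, near the 11.5% of all genes. Irf7 differed by -0.64 on the log2 scale, with effects of 0.18 for D/N440K and 0.83 for Tcf7 F/F:Vav1-Cre. Stat2 differed by -0.69, with effects of -0.15 for D/N440K and 0.54 for Tcf7 F/F:Vav1-Cre. Oas2 differed by -1.31, with effects of 0.02 for D/N440K and 1.33 for Tcf7 F/F:Vav1-Cre. Mx2 differed by -1.70, with effects of -0.74 for D/N440K and 0.96 for Tcf7 F/F:Vav1-Cre. Usp18 differed by -1.09, with effects of -0.06 for D/N440K and 1.03 for Tcf7 F/F:Vav1-Cre. Age and table differ together with genotype here and cannot be told apart from it.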

How the results depend on the processing

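In the Tcf7 comparison the count of 18 called members was 8 with no filter on low counts and 5 with sex as a term. The 18 log2 fold changes ran from 0.42 to 1.38 with sex as a term. Another fit took only libraries with over 50 CPM of Y-linked reads, 1 F/F:Vav1-Cre-labelled and 2 Tcf7 +/+ libraries. Its calls say nothing about stability, and the 18 log2 fold changes there ran from 0.44 to 1.39. The fit with sex as a term and the fit of those libraries were added after seeing the data. Leaving out single libraries gave 10 to 20, and 8 members (Irf7, Oas1a, Oas2, Oasl1, Oasl2, Mx2, Usp18 and Xaf1) were called each time. Without Tcf7 +/+ replicate 1, 18 were called higher, and Samd9l and Sp100 lower. DESeq2 called 13. Of 288 pairs of a called member and an alternative, 207 kept the call, 81 lost it and 0 reversed. Those pairs include the 2 fits that rest on 1 F/F:Vav1-Cre-labelled library. The groups overlapped for none of these members in the main fit, so the 0 was all but fixed beforehand. In +/N440K against Bcl11b +/+ the count of 1 was 0 with no filter, DESeq2, the replicate block or only the groups compared, and 0 to 2 without single libraries. In D/N440K against Bcl11b +/+ it was 0 with DESeq2, 2 with a stricter filter, with limma on the authors' CPM at a pseudocount of 1 or with only the groups compared, and 0 to 2 without single libraries. The difference of effects passed for 3 members with the replicate block and for 1 to 10 without single libraries. Deviations of same-numbered libraries had correlations between -0.112 and 0.0736. With 2 or 3 libraries per group this could not exclude pairing. The labels state no pairing, so libraries were treated as unpaired in the main fit. With the replicate block 12 members were called in the Tcf7 comparison. The share of all genes called was not set beside the counts under any alternative. Those counts therefore do not show whether members lost calls more than other genes did. The causes of the changes in count were not tested. At these library totals, members near the floor, such as Ifi44, could show only large differences.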
